A study of Homo sapiens with 12 samples.

Results

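The genes described here are 7 factors of interferon signalling, JAK1, STAT2, IRF9, IRF3, IRF7, ISG15 and IFI35, taken by name from the expression tables of a study of myricone C. All 7 were listed in both tables, among 11070 genes for 23132/87 and 11554 for SW48. The groups were 23132/87 cells with 10 µM myricone C (MyrC) for 48 h, 23132/87 cells with vehicle (CON, 0.1% DMSO) for 48 h, SW48 cells with 10 µM myricone C for 48 h and SW48 cells with vehicle for 48 h. Each had 3 libraries labelled as biological replicates, 12 in all. 23132/87 is an established line of gastric adenocarcinoma and SW48 one of colorectal adenocarcinoma, both given as wild type in the labels, and each tumour type is represented by a single line. Myricone C is named in the series title as a neolignan of Myristica fragrans, and the design asks how each line's transcripts differ between the compound and vehicle. RNA came from whole cultures, so a change in level per cell and a change in the share of cells that express a gene cannot be told apart.

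Type I and type III interferons bind receptors whose associated kinases, JAK1 and TYK2, phosphorylate STAT2. STAT2 and IRF9 are subunits of the complex ISGF3, which binds the interferon-stimulated response element (ISRE) of many target genes. IRF3 and IRF7 act earlier, as the factors that switch on interferon genes after nucleic acid sensing, and IRF7 is itself a target of ISGF3. ISG15 is a ubiquitin-like modifier and IFI35 a leucine zipper protein, and both are classical interferon-induced products. Gastric and colorectal epithelial cells use this pathway in antiviral defence.

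The promoters of 4 members are shown because STAT2 and IRF9 are subunits of the complex that binds the ISRE and ISG15 and IFI35 are induced products. Sequences are from RefSeq on GRCh38.p14, reach from 250 bases before to 50 bases after the start site, and are written 5′ to 3′ on the gene's strand. In the promoter set used, entries were found for 5 of the 7 members, with none for IRF3 or IRF7. Capitals mark matches on either strand to the ISRE core (GAAA, any 2 bases, GAAA), the STAT-binding core TTCNNNGAA or the core TGATGNAA bound by ATF4 with C/EBP factors.
ISG15, chr1:1013247-1013546, plus strand: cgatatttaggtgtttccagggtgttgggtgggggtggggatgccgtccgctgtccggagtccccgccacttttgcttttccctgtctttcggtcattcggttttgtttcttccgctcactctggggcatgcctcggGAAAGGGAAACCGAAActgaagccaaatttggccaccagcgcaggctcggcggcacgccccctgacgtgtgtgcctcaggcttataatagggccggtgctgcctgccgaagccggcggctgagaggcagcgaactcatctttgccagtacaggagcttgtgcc
IRF9, chr14:24161015-24161314, plus strand: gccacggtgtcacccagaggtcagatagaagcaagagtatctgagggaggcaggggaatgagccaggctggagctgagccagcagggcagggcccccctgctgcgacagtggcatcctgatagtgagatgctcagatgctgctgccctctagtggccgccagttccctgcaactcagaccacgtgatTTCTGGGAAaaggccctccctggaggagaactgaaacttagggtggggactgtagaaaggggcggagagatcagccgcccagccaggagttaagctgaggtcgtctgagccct
IFI35, chr17:43006534-43006833, plus strand: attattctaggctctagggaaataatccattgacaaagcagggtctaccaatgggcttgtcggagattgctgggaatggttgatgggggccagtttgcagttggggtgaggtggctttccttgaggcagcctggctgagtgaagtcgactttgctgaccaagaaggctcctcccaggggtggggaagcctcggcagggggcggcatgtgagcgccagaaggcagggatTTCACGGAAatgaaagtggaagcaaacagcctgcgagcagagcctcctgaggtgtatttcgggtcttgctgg
STAT2, chr12:56360058-56360357, minus strand: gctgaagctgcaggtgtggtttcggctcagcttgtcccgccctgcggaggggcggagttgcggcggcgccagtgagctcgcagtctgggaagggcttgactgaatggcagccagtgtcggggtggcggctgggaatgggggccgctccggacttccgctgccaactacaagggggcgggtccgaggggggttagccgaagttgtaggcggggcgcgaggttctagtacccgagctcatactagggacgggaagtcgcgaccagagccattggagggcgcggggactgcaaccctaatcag

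The ISG15 window held 2 ISRE matches, GAAAGGGAAA and GAAACCGAAA, which overlap in 1 unbroken run whose first base is at -113, with positions counted from the start site. Windows of IRF9 and IFI35 each held 1 match to the STAT-binding core, TTCTGGGAA at -63 in IRF9 and TTCACGGAA at -22 in IFI35. The STAT2 window and the 3 start-site windows of JAK1 held none of these letter patterns. Of 35116 windows of this length in the table, 3.57% held the ISRE core, 7.66% the STAT-binding core and 3.62% the ATF4 core. Among genes listed for 23132/87 whose window held the ISRE core, 64 of 233 rose with myricone C and 47 fell (27.5% and 20.2%), against 23.4% and 24.0% of all listed genes with a window. In SW48, 25 of 246 such genes rose and 44 fell (10.2% and 17.9%), against 10.1% and 20.0% of all. These shares describe letter matches and were not tested.

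Values are the authors' expression signal per gene, which appears to be scaled to both gene length and library size. Read depth is unknown. The listed signal of a library summed to between 464037 and 536594. Every listed gene lay above 1 in each library of its line, so genes low or silent in either condition could not be seen. The leading principal component separated myricone C from vehicle libraries in both lines. SW48 myricone C replicate 1 stood apart. It lay at 14.4 on that component, against 36.5 and 29.1 for the other SW48 myricone C libraries, and genes of 7SL, 7SK and U small nuclear RNA made up 5.26% of its signal, while the remaining SW48 libraries held 0.049% to 0.204%. Without it the log2 changes of the members in SW48 were 1.14 for IRF9, 1.03 for IRF7, 0.52 for JAK1 and 1.21 for ISG15, all called, and -0.15 for IRF3, -0.17 for STAT2 and -0.18 for IFI35, not called. All 5 general epithelial markers were listed in both lines, and their summed signal was 2725 to 3765 with myricone C and 7654 to 10250 with vehicle in 23132/87, and 2785 to 3956 with myricone C and 1018 to 1790 with vehicle in SW48. Of 8 gastric markers, 23132/87 listed TFF1 and not the other 7, at 134.9 to 173.4 with myricone C and 219.4 to 346.4 with vehicle, and SW48 listed none. Of 8 intestinal markers, 23132/87 listed 5, with a summed signal of 208.4 to 285.8 with myricone C and 323.5 to 375.5 with vehicle, and SW48 listed 3, with 17.4 to 23.9 with myricone C and 35.5 to 46.2 with vehicle. Of 8 leukocyte markers, CD68 was listed in 23132/87, at 12.9 to 14.8 with myricone C and 3.95 to 6.48 with vehicle, and none in SW48. PTPRC, the defining pan-leukocyte gene, was listed in neither. The part of these marker shifts in the results was not tested.

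In 23132/87 cells, 4 of the 7 members rose and none fell with myricone C. IRF9 increased 3.69-fold, IRF7 2.42-fold, JAK1 1.79-fold and STAT2 1.58-fold on mean signal. In SW48 cells 3 of the 7 rose and none fell, with IRF9 at 2.59-fold, IRF7 at 1.94-fold and JAK1 at 1.41-fold. ISG15, IRF3 and IFI35 were not called in either line, nor was STAT2 in SW48. Calls used limma on log2(signal + 1) with p adjusted over all listed genes and a threshold of 0.05. They are read against a broad response: 46.5% of all genes were called in 23132/87 and 29.3% in SW48, with 23.3% and 10.1% called as higher. The 4 members called in 23132/87 and the 3 called in SW48 were also those whose libraries did not overlap between groups, all of them higher with myricone C. Over all genes 56.8% did not overlap in 23132/87 (28.9% higher and 27.9% lower) and 45.3% in SW48 (16.8% higher and 28.4% lower). The median log2 change of the members was 0.63 in 23132/87, against 0.01 over all genes, and 0.48 in SW48, against -0.08 over all genes. The members were chosen with earlier results of these data known, so neither these medians nor the counts test them against all genes. At an unadjusted p under 0.05 no member fell in either line, and 5 rose in 23132/87 and 3 in SW48.

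**Figure D1:**
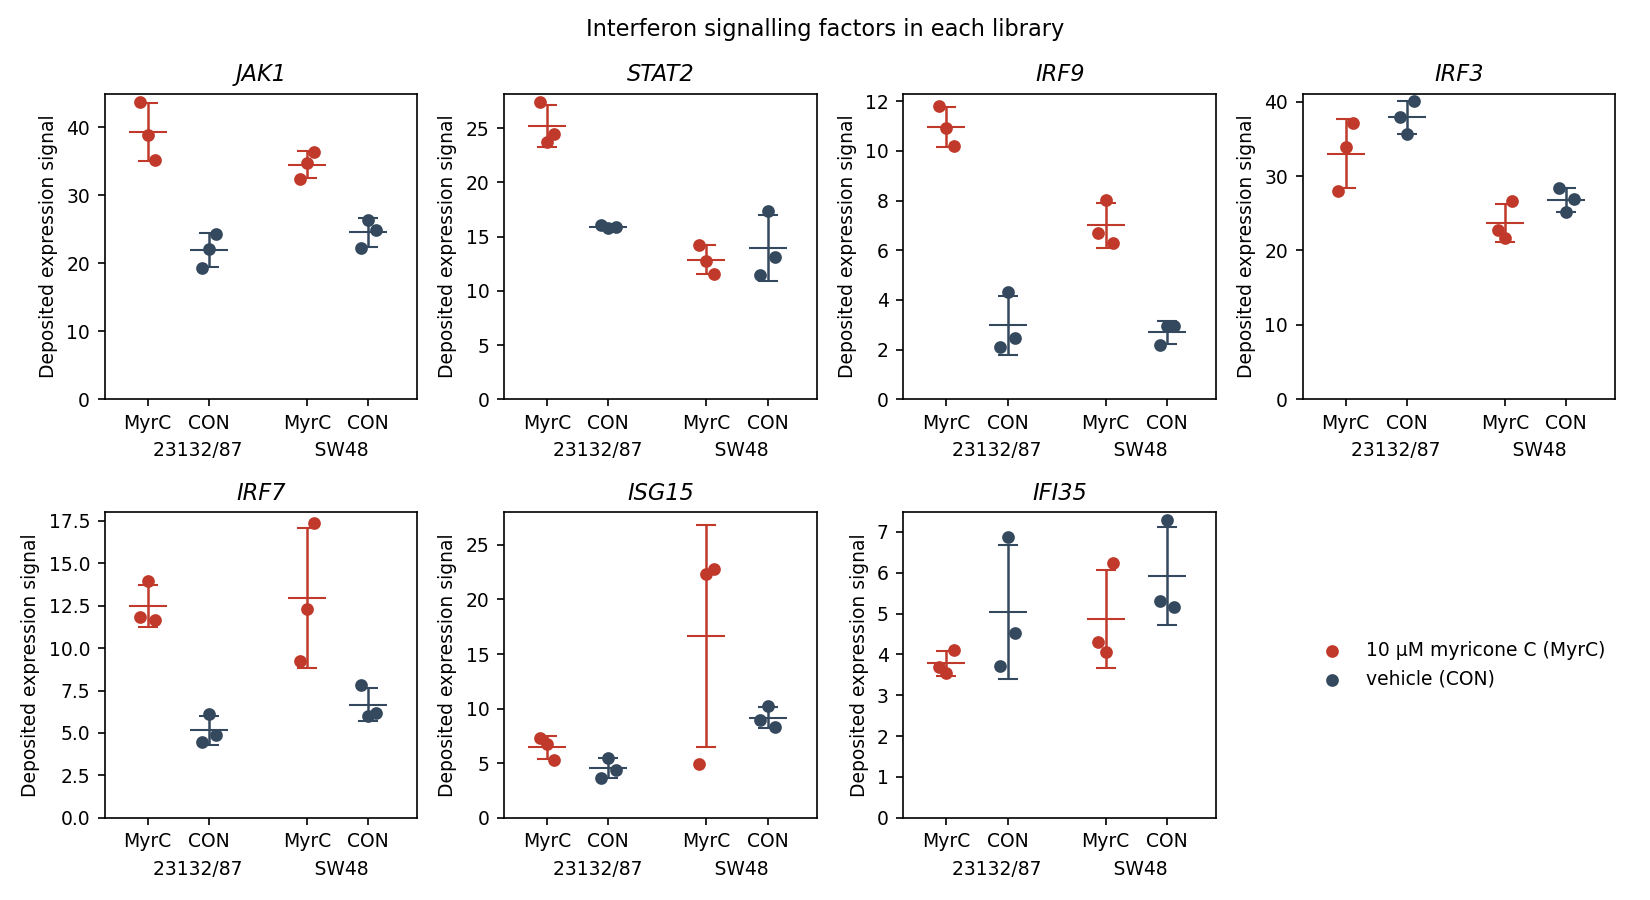
Deposited expression signal of each member (linear axis from 0) in the 3 myricone C and 3 vehicle libraries of 23132/87 and SW48; points are libraries in the order of their replicate numbers, and bars are the mean ± SD (n = 3). IRF9, IRF7 and JAK1 lie higher in every myricone C library than in any vehicle library of the same line, STAT2 does so in 23132/87 alone, and 1 SW48 myricone C library holds ISG15 at 4.93 beside 22.3 and 22.7.

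JAK1, at chromosome 1, 64833229 to 64966504 on the minus strand of GRCh38 (all gene positions are from GENCODE release 29), encodes the tyrosine kinase shared by the receptors of type I, II and III interferons. In 23132/87 its signal was 43.8, 38.8 and 35.3 in myricone C replicates 1 to 3, against 19.3, 22.1 and 24.3 in vehicle replicates 1 to 3. All myricone C libraries lay above all vehicle libraries, and the log2 change was 0.82 ± 0.12 (SE, adjusted p = 0.000457). In SW48 the signal was 32.4, 34.8 and 36.4 with myricone C, against 22.3, 26.4 and 25.0 with vehicle. The groups again did not overlap, and the log2 change was 0.48 ± 0.12 (SE, adjusted p = 0.0113). JAK1 ranked 657th among log2 changes of 11070 genes in 23132/87, counted from the largest rise, and 1066th of 11554 in SW48. The gene shares 4 exonic bases with RAVER2 on the other strand.

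STAT2, at chromosome 12, 56341597 to 56360155 on the minus strand, encodes the transactivating subunit of ISGF3. In 23132/87 its signal was 27.4, 23.7 and 24.4 with myricone C, against 16.1, 15.8 and 15.9 with vehicle. The vehicle libraries differed little, with a coefficient of variation of 1.04%, and all lay below every myricone C library. STAT2 rose by 0.63 ± 0.10 on the log2 scale (SE, adjusted p = 0.000774). In SW48 the groups overlapped, at 14.2, 12.7 and 11.6 with myricone C and 11.4, 17.3 and 13.1 with vehicle. The log2 change there was -0.10 with a 95% interval of -0.45 to 0.25 (adjusted p = 0.680), and it was 0.06 without vehicle replicate 2, the highest of these libraries.

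IRF9, the DNA-binding subunit of ISGF3, lies at chromosome 14, 24161053 to 24166565 on the plus strand. Its signal in 23132/87 was 11.8, 10.9 and 10.2 with myricone C, against 2.11, 4.32 and 2.49 with vehicle. Every myricone C library exceeded the highest vehicle library by a wide margin, while vehicle libraries varied among themselves with a coefficient of variation of 39.8%. The log2 change was 1.63 ± 0.19 (SE, adjusted p = 0.000125), ranking 92nd of the 11070 genes. In SW48, IRF9 stood at 6.69, 8.01 and 6.30 with myricone C, against 2.18, 2.97 and 2.95 with vehicle. The groups did not overlap, and the log2 change of 1.11 ± 0.16 (SE, adjusted p = 0.000556) ranked 228th of 11554. With all libraries it was the largest rise among the 7 members in each line. On GENCODE release 29, 48.4% of the exonic bases of IRF9 also belong to a second annotated protein-coding gene on the same strand, AL136295.5, which was not listed in either table, so the values could hold reads of both.

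IRF3, at chromosome 19, 49659569 to 49665875 on the minus strand, is the constitutively expressed factor that first activates interferon genes. It had the highest mean signal of the 7 members with vehicle in both lines. In 23132/87 it was at 28.0, 33.9 and 37.1 with myricone C and 37.9, 35.6 and 40.1 with vehicle, with overlapping groups and a log2 change of -0.20 (95% interval -0.46 to 0.06, adjusted p = 0.186). In SW48 it was at 22.7, 21.7 and 26.6 with myricone C and 28.3, 25.1 and 26.9 with vehicle, again overlapping, at -0.18 (95% interval -0.45 to 0.09, adjusted p = 0.306). IRF3 shares 734 exonic bases, 19.4% of its own, with BCL2L12 on the opposite strand. BCL2L12 had a mean signal of 21.3 with myricone C and 30.1 with vehicle in 23132/87 and fell by 0.49 on the log2 scale (adjusted p = 0.00890), and in SW48 it fell by 0.66 (adjusted p = 0.0164). The libraries were stranded, but whether counting used strand is not given in the sources used here, so the part of BCL2L12 in the IRF3 values was not tested.

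IRF7, at chromosome 11, 612553 to 615999 on the minus strand, is the factor that amplifies interferon production. Its signal in 23132/87 was 11.8, 13.9 and 11.7 with myricone C, against 4.45, 6.12 and 4.87 with vehicle. The lowest treated library lay well above the highest vehicle library, and the log2 change was 1.14 ± 0.14 (SE, adjusted p = 0.000163), ranking 276th. In SW48 the signal was 9.22, 12.3 and 17.4 with myricone C, against 7.81, 6.00 and 6.20 with vehicle. The treated libraries were spread wider, with a coefficient of variation of 31.8% against 14.9% with vehicle, and replicate 1 was the lowest of them but still above every vehicle library. The log2 change was 0.83 ± 0.20 (SE, adjusted p = 0.0101), ranking 414th. No other annotated gene overlaps IRF7.

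ISG15, at chromosome 1, 1001138 to 1014540 on the plus strand, encodes the modifier that is joined to proteins after interferon. It shares 36 exonic bases with a pseudogene on the other strand. In 23132/87 its signal was 7.28, 6.80 and 5.26 with myricone C, against 3.67, 5.49 and 4.42 with vehicle. The groups overlapped in 1 place, where vehicle replicate 2 exceeded myricone C replicate 3, and the log2 change of 0.43 ± 0.16 (SE, adjusted p = 0.0508) fell just short of the threshold. Leaving out either of those 2 libraries gave a call, at 0.55 without vehicle replicate 2 (adjusted p = 0.0342) and 0.55 without myricone C replicate 3 (adjusted p = 0.0280). Leaving out any other library of the line gave no call, at 0.318 to 0.425 (adjusted p = 0.100 to 0.166).

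In SW48, ISG15 stood at 4.93, 22.3 and 22.7 in myricone C replicates 1 to 3, against 9.00, 10.2 and 8.29 with vehicle. Replicates 2 and 3 lay above every vehicle library, and replicate 1 lay below every vehicle library. With all libraries the log2 change was 0.55 with a 95% interval of -0.37 to 1.47 (adjusted p = 0.347). Without replicate 1, the library with 5.26% small RNA signal, it was 1.21 (adjusted p = 0.000118). It was 0.23 without replicate 2 (adjusted p = 0.757) and 0.21 without replicate 3 (adjusted p = 0.751). IRF7, JAK1 and IRF9 lay above vehicle in replicate 1 as well.

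IFI35, at chromosome 17, 43006725 to 43014456 on the plus strand, binds NMI and acts in interferon and NF-kB signalling. In 23132/87 it was at 3.69, 3.54 and 4.11 with myricone C and 3.73, 6.88 and 4.52 with vehicle, a log2 change of -0.31 (95% interval -0.71 to 0.10, adjusted p = 0.195). In SW48 it was at 4.30, 4.05 and 6.25 with myricone C and 5.30, 7.29 and 5.16 with vehicle, a log2 change of -0.24 (95% interval -0.64 to 0.15, adjusted p = 0.338). The groups overlapped in both lines, and in each the highest library was vehicle replicate 2.

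**Figure D2:**
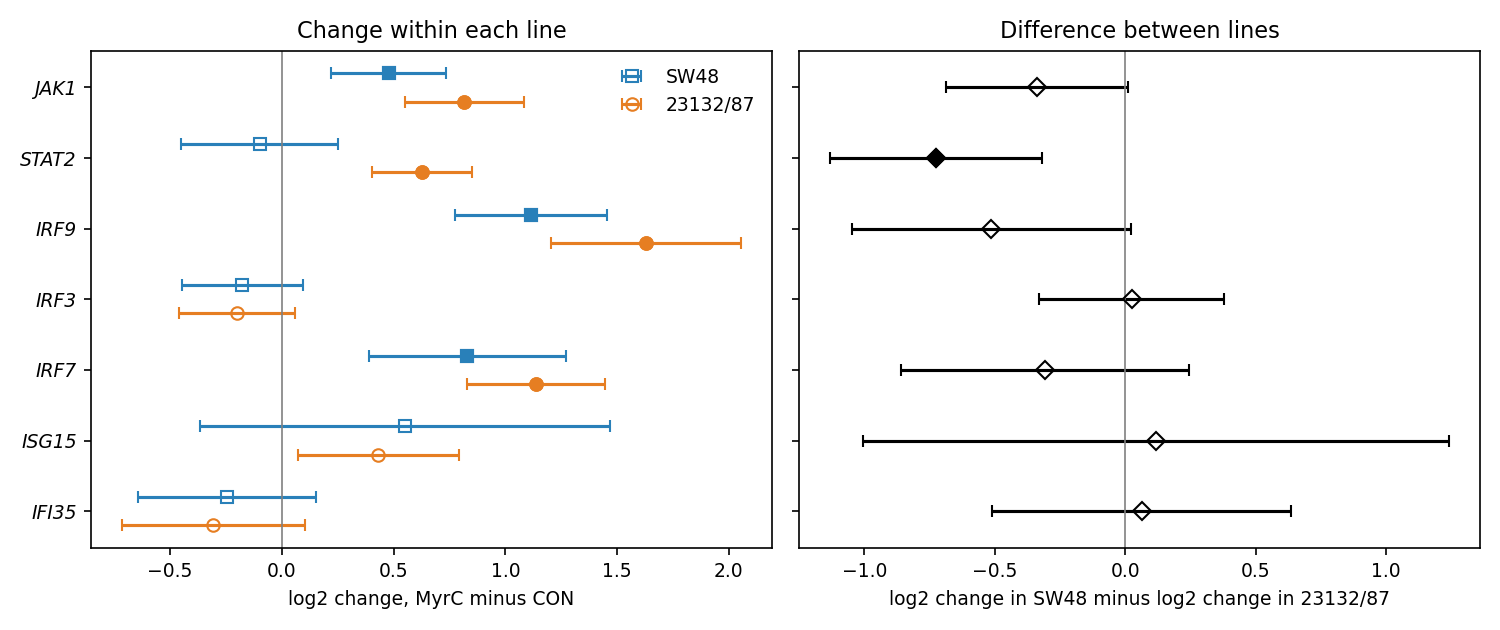
Left, log2 change of each member (myricone C minus vehicle, on log2(signal + 1)) in SW48 (squares) and 23132/87 (circles); right, the SW48 change minus the 23132/87 change; bars are 95% intervals from limma and filled symbols passed adjusted p under 0.05. IRF9 had the largest rise in each line (1.11 in SW48 and 1.63 in 23132/87), and the difference passed for STAT2 alone, at -0.73.

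The difference between lines was tested as a line-by-treatment term over the 10252 genes in both tables, of which 12.8% were called. Of the 7 members STAT2 was called, as lower, while 5.34% of all genes were called as higher and 7.43% as lower. That balance turned with scaling, to 689 higher and 604 lower after quantile normalization and 688 higher and 582 lower after median-centred scaling, against 547 higher and 762 lower as deposited. The STAT2 difference was -0.73 ± 0.19 (SE) on the log2 scale, SW48 minus 23132/87 (adjusted p = 0.0224). The call was lost without SW48 myricone C replicate 3 (-0.66, adjusted p = 0.0513). For IRF9 the difference was -0.51 with a 95% interval of -1.05 to 0.02 (adjusted p = 0.192), and it passed without 23132/87 vehicle replicate 2, the library with the highest vehicle IRF9 (-0.75, adjusted p = 0.0400). Over all single libraries left out, the IRF9 difference ranged from -0.75 to -0.36 (adjusted p = 0.0400 to 0.388). JAK1 differed by -0.34 (95% interval -0.69 to 0.01, adjusted p = 0.187) and IRF7 by -0.31 (95% interval -0.86 to 0.24, adjusted p = 0.467), neither called. The ISG15 difference was 0.12 with a 95% interval of -1.0 to 1.24 (adjusted p = 0.908), and without SW48 myricone C replicate 1 it was 0.78 (adjusted p = 0.0305). IRF3 and IFI35 had differences of 0.02 and 0.06.

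The order of the members by mean signal changed with treatment. The tables were made separately, so levels are ordered within a table only, and the comparison between genes assumes the length scaling described above. In 23132/87 with myricone C the order was JAK1 (39.3), IRF3 (33.0), STAT2 (25.2), IRF7 (12.5), IRF9 (11.0), ISG15 (6.45) and IFI35 (3.78), with library values that overlapped between JAK1 and IRF3 and between IRF7 and IRF9. With vehicle it was IRF3 (37.9), JAK1 (21.9), STAT2 (15.9), IRF7 (5.15), IFI35 (5.04), ISG15 (4.53) and IRF9 (2.97), and neighbours among the last 4 overlapped. IRF9 was thus the fifth member with myricone C and the lowest with vehicle.

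In SW48 with myricone C the order was JAK1 (34.5), IRF3 (23.7), ISG15 (16.7), IRF7 (13.0), STAT2 (12.9), IRF9 (7.00) and IFI35 (4.87), and each neighbouring pair from IRF3 to STAT2 overlapped. Without replicate 1 the order was unchanged, with ISG15 at 22.5, above IRF7 at 14.8 with no overlap. With vehicle it was IRF3 (26.8), JAK1 (24.6), STAT2 (14.0), ISG15 (9.18), IRF7 (6.67), IFI35 (5.92) and IRF9 (2.70), with overlap between IRF3 and JAK1 and between IRF7 and IFI35. JAK1 passed IRF3 to become the highest member in both lines with myricone C, without overlap in SW48.

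Ratios of members within a library do not depend on how that library was scaled. The ratio of IRF9 to STAT2 signal in 23132/87 was 0.432, 0.460 and 0.417 with myricone C, against 0.131, 0.274 and 0.157 with vehicle. In SW48 it was 0.470, 0.628 and 0.545 with myricone C, against 0.190, 0.171 and 0.224 with vehicle. Treated libraries lay above vehicle libraries in both lines. In SW48, where STAT2 was not called, the ratio restates the rise of IRF9 and is not a separate result.

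The ratio of IRF7 to IRF3 in 23132/87 was 0.422, 0.411 and 0.315 with myricone C, against 0.117, 0.172 and 0.122 with vehicle. In SW48 it was 0.405, 0.567 and 0.653 with myricone C, against 0.276, 0.239 and 0.230 with vehicle, and the groups did not overlap in either line. IRF7 alone did not overlap either and IRF3 was not called, so this ratio largely restates the rise of IRF7. How often ratios of other gene pairs separate the groups was not counted. The ratio of ISG15 to IFI35 in 23132/87 was 1.97, 1.92 and 1.28 with myricone C, against 0.986, 0.797 and 0.978 with vehicle. In SW48 it was 1.15, 5.51 and 3.64 with myricone C, against 1.70, 1.41 and 1.61 with vehicle, so that replicate 1 again fell below vehicle and the others above.

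**Figure D3:**
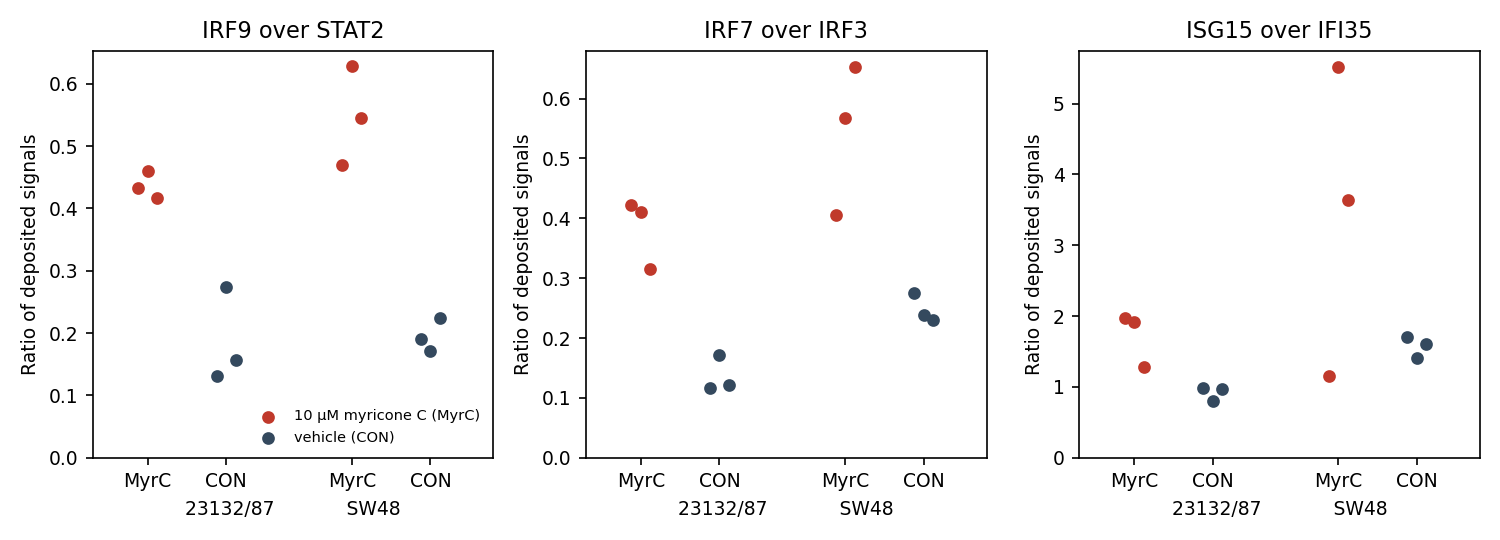
Ratio of the deposited signals of 2 members within each library (linear axis from 0; points are libraries in the order of their replicate numbers). The ratios of IRF9 to STAT2 and of IRF7 to IRF3 lie higher in every myricone C library than in any vehicle library of the same line, and the ratio of ISG15 to IFI35 does so in 23132/87 but not in SW48, where myricone C replicate 1 lies at 1.15.

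Across the 12 libraries, with log2 values centred within each line, JAK1 and IRF9 had a Pearson correlation of 0.949, IRF7 and IRF9 of 0.897 and IRF7 and JAK1 of 0.893. Of all 21 pairs of members, these were the 3 highest. The libraries share the treatment contrast, and these values carry no test. STAT2 correlated with IRF9 at 0.640 and with ISG15 at 0.0678, and ISG15 with IFI35 at 0.0391. Over the 11 libraries without SW48 myricone C replicate 1, ISG15 correlated at 0.829 with IRF7, 0.795 with IRF9 and 0.771 with JAK1, against 0.657, 0.483 and 0.526 over all 12, and at 0.172 with STAT2 and -0.191 with IFI35. Among genes with a mean of at least 10 in both tables, the closest in pattern to IRF9 were MBD6 (0.985) and CANX (0.975), to IRF7 ZNF598 (0.984) and PFDN2 (0.976), and to JAK1 SEC24D (0.988) and ZSCAN29 (0.988). The closest to STAT2 were WDR11 (0.936) and SH3D19 (0.929), and to ISG15 RNF25 (0.901) and UBE2R2 (0.849). IRF3 was matched best by MRPL34 (0.919) and FAH (0.917), and IFI35 by KCTD10 (0.918) and DLGAP4 (0.896).

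Other genes of the pathway, in lists of 114 genes, were counted beside the members. Of 67 listed in 23132/87, 17 rose and 12 fell (25.4% and 17.9%), against 23.3% and 23.2% of all genes, and the median change was 0.09 on the log2 scale, against 0.01 over all genes. Of 70 listed in SW48, 6 rose and 14 fell (8.57% and 20.0%), against 10.1% and 19.2% of all genes, with a median of -0.07, against -0.08 over all genes. These shares lie near those of all genes, and no difference between the lists was tested. Single libraries left out moved several counts of called genes by over 1.5 times. In 23132/87 the sensors ranged from 1 to 7 called (1 without vehicle replicate 1 or 2 or without myricone C replicate 1, and 7 without vehicle replicate 3), the receptors from 1 to 3 and the ISG15 conjugation enzymes from 1 to 2 (both 1 without vehicle replicate 1 or myricone C replicate 1). The negative regulators ranged from 1 to 4 (1 without vehicle replicate 2 and 2 without myricone C replicate 2) and the other regulatory factors from 3 to 5 (3 without myricone C replicate 2). In SW48 the negative regulators ranged from 0 to 3 (0 without vehicle replicate 3 or myricone C replicate 2), the receptors from 0 to 2 (0 without the same libraries) and the ISG15 conjugation enzymes from 1 to 2 (1 without vehicle replicate 2 or 3 or myricone C replicate 2).

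No interferon gene was listed in 23132/87. In SW48, 2 of 10 were listed and both rose, beside 10.1% of all genes called as higher. IFNE, the epithelial interferon epsilon, was at 26.3, 23.2 and 20.2 with myricone C, against 11.6, 12.4 and 13.0 with vehicle, a log2 change of 0.85 ± 0.13 (SE, adjusted p = 0.000934). The groups did not overlap. IFNA1 was at 10.9, 7.21 and 6.93 with myricone C, against 3.77, 5.55 and 6.23 with vehicle, and also did not overlap (0.59 ± 0.20, adjusted p = 0.0450). IFNA1 belongs to a family of near-identical genes that can share reads, so its own level is uncertain, and the call did not hold without vehicle replicate 1 (0.42), vehicle replicate 2 (0.65), myricone C replicate 1 (0.41) or myricone C replicate 2 (0.68).

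All 6 receptor genes were listed in both lines. In each line 33.3% of them were called, beside 46.5% of all genes in 23132/87 and 29.3% in SW48. In 23132/87, 2 rose and none fell (none also at an unadjusted p under 0.05, limma). IFNAR2, a chain of the type I receptor, averaged 4.87 ± 1.28 with myricone C and 2.95 ± 0.945 with vehicle (SD, n = 3), at 0.58 ± 0.20 (SE, adjusted p = 0.0405), a call that did not hold without vehicle replicate 1 (0.58), vehicle replicate 3 (0.40) or myricone C replicate 1 (0.41). In SW48, 1 rose and 1 fell. IL10RB, a chain of the type III interferon receptor, averaged 6.67 ± 0.904 with myricone C and 10.7 ± 1.49 with vehicle (SD, n = 3) and fell by 0.60 ± 0.15 (SE, adjusted p = 0.0119), a call lost without vehicle replicate 3 (-0.57) or myricone C replicate 2 (-0.53). Of the 7 other Janus kinase and STAT genes listed in 23132/87, none passed, beside 46.5% of all genes (limma). At an unadjusted p under 0.05 (limma), 2 were higher and 1 lower there. In SW48, 1 of 7 fell and none rose (14.3%, beside 29.3% of all genes), with 2 lower and none higher unadjusted. This was TYK2, the kinase of the type I receptor beside JAK1, at -0.34 ± 0.12 (SE, adjusted p = 0.0484), a call lost on leaving out any vehicle library or myricone C replicate 2 or 3 (-0.36 to -0.31).

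Among other interferon regulatory factors, 4 of 7 listed rose and 1 fell in 23132/87, so that 71.4% were called, beside 46.5% of all genes. None of the 7 was called in SW48 (limma), beside 29.3% of all genes, with 1 higher and none lower at an unadjusted p under 0.05. IRF1, a target and effector of interferon gamma, averaged 10.0 ± 0.742 with myricone C and 3.04 ± 0.583 with vehicle in 23132/87 (SD, n = 3), and the change was 1.46 ± 0.14 on the log2 scale (SE, adjusted p = 3.87e-05). In SW48 it averaged 7.98 ± 1.18 with myricone C and 6.62 ± 0.823 with vehicle, at 0.23 ± 0.15, not called. IRF2BP1, a corepressor that binds IRF2, fell by 0.85 ± 0.18 in 23132/87.

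Of nucleic acid sensors and their adaptors, 12 were listed in each line, with 2 higher and 2 lower in 23132/87 and 1 higher and 2 lower in SW48. The called shares were 33.3% and 25.0%, beside 46.5% and 29.3% of all genes. DHX58, which encodes the RIG-I-like receptor LGP2, averaged 6.62 ± 1.07 with myricone C and 2.93 ± 0.493 with vehicle in 23132/87 (SD, n = 3) and rose by 0.95 ± 0.15 (SE). In SW48 its mean was 2.20 with myricone C and 2.27 with vehicle. MYD88, the adaptor of most Toll-like receptors, fell by 0.86 ± 0.19 in SW48 (-1.02 without myricone C replicate 1) and by 0.37 ± 0.13 in 23132/87, and the 23132/87 call was lost on leaving out any library but vehicle replicate 3 (-0.42 to -0.25).

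Of the enzymes that attach ISG15 to proteins or regulate this, 3 of 7 were listed in 23132/87, with 2 higher and none lower, also unadjusted, and 5 in SW48, with 1 higher and 2 lower. Of those listed, 66.7% and 60.0% were called, beside 46.5% and 29.3% of all genes. TRIM25, a ligase for ISG15 and for RIG-I signalling, averaged 52.0 ± 4.51 with myricone C and 26.1 ± 0.894 with vehicle in 23132/87 (SD, n = 3) and 53.0 ± 10.3 with myricone C and 23.6 ± 1.59 with vehicle in SW48. It rose by 0.97 ± 0.10 and 1.12 ± 0.15 on the log2 scale (SE, adjusted p = 5.60e-05 and 0.000440). UBE2L6, the E2 enzyme for ISG15, was listed in SW48 alone and fell by 0.54 ± 0.18, a call lost without any vehicle library or without myricone C replicate 2 (-0.62 to -0.32).

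Interferon-stimulated effector genes act against infection and are induced by ISGF3 and related factors. Of 22 listed in 23132/87, 5 rose and 7 fell (median -0.10 on the log2 scale), and of 19 listed in SW48, 6 fell and none rose (median -0.22), with 7 lower and 1 higher at an unadjusted p under 0.05 (limma). The called shares were 54.5% in 23132/87 and 31.6% in SW48, beside 46.5% and 29.3% of all genes, and lower calls outnumbered higher ones over all genes of SW48 too (19.2% and 10.1%). Without 23132/87 vehicle replicate 2, 3 rose and 4 fell in that line, and without SW48 vehicle replicate 2, 1 rose and 6 fell in SW48. OAS3, a synthetase that activates RNase L, was at 14.5, 14.1 and 15.0 with myricone C, against 42.9, 39.7 and 39.7 with vehicle in 23132/87. In SW48 it was at 9.42, 6.55 and 8.27 with myricone C, against 17.9, 18.5 and 15.7 with vehicle. OAS3 was thus lower in every treated library, and it fell by 1.43 ± 0.09 and 1.02 ± 0.15 on the log2 scale (SE, adjusted p = 5.00e-06 and 0.000697). ISG20, an exonuclease, was listed in 23132/87 alone, where it averaged 23.4 ± 2.55 with myricone C and 6.33 ± 0.613 with vehicle and rose by 1.73 ± 0.12. Among the negative regulators, 2 of 10 listed rose and 2 fell in 23132/87, and 1 of 12 rose and 2 fell in SW48, so that 40.0% and 25.0% were called, beside 46.5% and 29.3% of all genes. TRIM28, a corepressor, fell by 0.69 ± 0.11 in 23132/87. SOCS3, an inhibitor of JAK kinases listed in SW48 alone, rose by 0.74 ± 0.19, a call that did not hold without vehicle replicate 3 (0.70), myricone C replicate 2 (0.61) or myricone C replicate 3 (0.67). TRIM28 in SW48 was at -0.38 ± 0.12, and 4 of the 6 single libraries left out ended the call, namely vehicle replicates 1 and 3 and myricone C replicates 1 and 2 (-0.38 to -0.32).

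**Figure D4:**
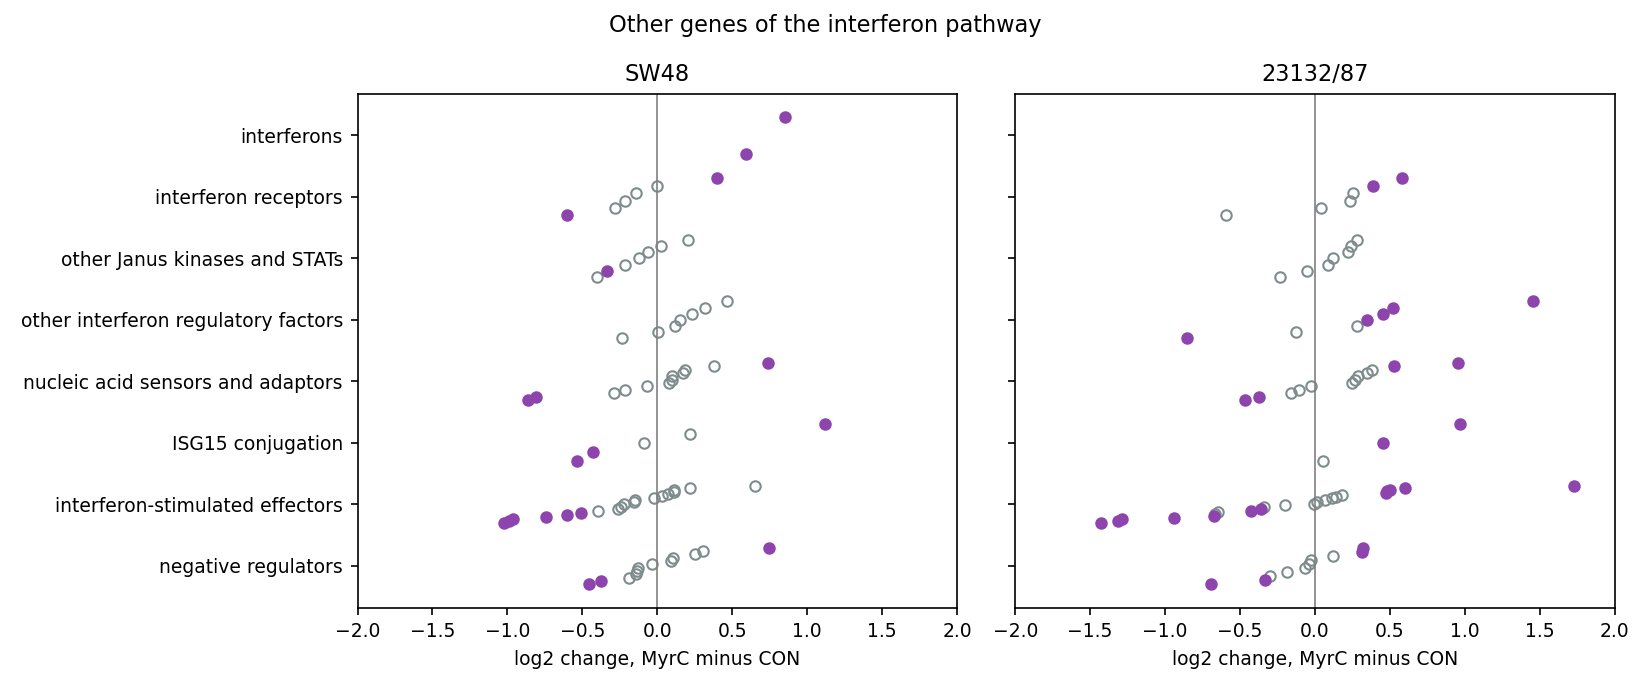
Log2 change (myricone C minus vehicle, on log2(signal + 1)) of every listed gene of each pathway list in SW48 (left) and 23132/87 (right); filled points passed adjusted p under 0.05 and open points did not, and points within a list are sorted by value. The effector list holds calls in both directions in 23132/87 (5 higher and 7 lower) and lower calls alone in SW48 (6).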

How the data were processed

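Stranded mRNA libraries of 2 cell lines were sequenced, per the labels' protocols. The submitters' processing notes name STAR, FastQC and GRCh38. The authors deposited 1 table per line of expression signal per gene, whose values resemble FPKM or TPM, and which of these it is, with the counting tool, strand setting and annotation, is not given in the sources used here.

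Genes whose mean was at least 1 were fitted as log2(signal + 1) in limma 3.58.1 (R 4.3.3) with a trend of variance on mean, and p-values were adjusted by Benjamini-Hochberg over all listed genes. The fit of a line used its 6 libraries. The line-by-treatment term used all 12 libraries and the 10252 genes whose symbol and identifier match in both tables (12 symbols with different identifiers were left out). Errors of changes are moderated standard errors. The scripts were tested on simulated data. No 2 libraries were identical.

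The members and lists were chosen with earlier results of these data known. Named genes of other lists are the 2 with the largest change past the threshold in either line. Genes alike in pattern are the 2 of highest correlation per member. BCL2L12, RAVER2 and AL136295.5 were named for their overlap with a member. Alternatives were pseudocounts of 0.1 and 5, no filter, a filter of 10 in at least 3 libraries, quantile and median-centred scaling, no trend, 1 joint fit, replicate blocks and each library left out. Member orders and correlations without SW48 myricone C replicate 1 were added after seeing the data.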

Additional observations from a re-analysis of the deposited data

Results flagged for a closer look

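Among the members and the genes named from the pathway lists, 4 passed the line-by-treatment term (limma, adjusted p under 0.05). Their change with myricone C thus differed between the lines. Of all 10252 genes tested for this term, 12.8% passed. SP100, an effector gene not named above, also passed, at -0.85 for SW48 minus 23132/87 (adjusted p = 0.0169). Its change was -0.24 in SW48 and 0.60 in 23132/87. For STAT2 the SW48 change minus the 23132/87 change was -0.73 (adjusted p = 0.0224), with -0.10 in SW48 and 0.63 in 23132/87, and adjusted p ranged from 0.00884 to 0.0551 over 21 alternatives. For IL10RB it was -0.84 (adjusted p = 0.00983), with a change of -0.60 in SW48 and 0.23 in 23132/87. For IRF1 it was -1.22 (adjusted p = 0.00172), with 0.23 in SW48 and 1.46 in 23132/87. For DHX58 it was -1.02 (adjusted p = 0.0405), with -0.07 in SW48 and 0.95 in 23132/87, and adjusted p ranged from 0.0119 to 0.105 over the 20 alternatives that held the gene. Adjusted p stayed under 0.05 for IRF1 (up to 0.0122) and IL10RB (up to 0.0429) in the 20 alternatives that held each.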

How the results depend on the processing

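The 4 calls in 23132/87 and those of IRF9 and IRF7 in SW48 held under each alternative that kept the gene. JAK1 in SW48 lost its call with a replicate block by column number (0.37, adjusted p = 0.0894, limma). In that block vehicle replicate 1 (22.3) and myricone C replicate 3 (36.4) had no partner and did not inform the estimate. They hold the lowest and highest SW48 values of JAK1, and their part in the lost call was not tested. The filter of 10 in at least 3 libraries kept IRF9 and IRF7 in 23132/87 through their myricone C libraries alone. Their calls under it therefore add nothing, and it removed both genes in SW48. With values of at least 10 required in at least 3 libraries, 1 member was called in SW48, since fewer members were tested, and 812 genes were called for the difference between lines, against 1309 without that filter. Leaving out single libraries gave 3959 to 4888 genes called in 23132/87, 2199 to 3656 in SW48 and 831 to 1413 for the difference, with 4 to 5, 3 to 4 and 0 to 2 members called. The lowest SW48 count came without myricone C replicate 2 and the lowest difference count without SW48 vehicle replicate 2.

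Same-numbered libraries did not deviate together (r of -0.24, 0.112 and -0.27 in 23132/87 and -0.0732, -0.175 and -0.138 in SW48), and the main fits used no pairing. With 3 libraries per group these values cannot show whether same-numbered libraries shared a batch. With the replicate block, 4449 genes were called in 23132/87, 2811 in SW48 and 770 for the difference, and 0 members for the difference (limma; STAT2 adjusted p = 0.0551, and 1 member at an unadjusted p under 0.05 without the block). The numbers in the SW48 column names differ from those in the titles and form 2 pairs, with r of 0.152 and 0.271. A block on them gave 2585 genes in SW48 and 946 for the difference.

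Signs turned for values that were not called. STAT2 in SW48 was 0.058 without vehicle replicate 2, within -0.22 to 0.058 over single libraries left out. For the difference between lines, single libraries left out gave -0.085 to 0.11 for IRF3, -0.22 to 0.78 for ISG15 and -0.15 to 0.22 for IFI35, and the block by column number gave -0.019, -0.23 and -0.16. ISG15 in 23132/87 passed with a pseudocount of 5 (0.26, adjusted p = 0.0481) and without the trend (adjusted p = 0.0446). It did not pass with a pseudocount of 0.1 (adjusted p = 0.0526), after quantile normalization (0.0912) or in the joint fit (0.361). Of the SW48 calls, 34.6% were higher as deposited and 46.2% after quantile normalization. For the difference these shares were 41.8% as deposited, 53.3% after quantile normalization and 54.2% after median-centred scaling. Depth is unknown, so counting error could not be set beside the low values of IRF9 and IFI35.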
